A study of Mus musculus with 1119 samples.

Results

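The cells described here are 55 single cells of the mouse hair bulb in which the stem cell receptor gene Lgr5 was found at 1 TPM or more. They were chosen by that value alone among the P30 hair bulb cells with at least 2000 genes at 1 TPM or more, and make up 14.5% of them (exact interval 11.1 to 18.5%). The series holds 1119 cells in all. The Lgr5-negative cells they are set against number 59, 63, 61, 65 and 76 on plates P1-3, P1-4, P1-5, P1-6 and P2-1, and 5 further cells of the table had too few genes. TPM, a length-corrected transcript abundance, is the share of a cell's RNA molecules assigned to a gene, scaled to the same total in every cell. The study profiled sorted follicle cells one by one with Smart-seq2, a full-length transcript method, from the resting follicle to full growth. Both sets of cells came from postnatal day 30 (P30) back skin of mice of the strain Lhx2-GFP (CD1), sexes mixed, untreated as far as the labels say. The earlier Lgr5-positive cells they are later set beside came from P21 bulge, P21 hair germ, P23-P24 hair germ, P25-P27 hair germ and P25-P27 matrix of mice of another strain, Lgr5-eGFPiresCreER;R26-tdTomato, sexes mixed and with no treatment given. For the P30 cells, GFP, integrin α6, integrin β1, CD34, Sca-1 and P-cadherin are given as sort markers, without the gates. The authors' deposited table names every cell of the P30 hair bulb a matrix cell (transit amplifying cell) of anagen VI. The labels name no animal, so each set counts as 1 sample: no p-value is given, and the spread given is that between cells and between the 5 collection plates read from the cell names.

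The hair bulb is the base of the growing follicle. Its matrix cells surround the dermal papilla, divide rapidly and give rise to the hair shaft and the inner root sheath, while the outer root sheath runs down the outside of the bulb as a basal layer next to the basement membrane. Lgr5, a receptor that binds R-spondins and strengthens WNT signalling, marks stem cells of the bulge and hair germ at rest, and in the growing follicle it is known from the lower outer root sheath.

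The 2 sets came from the same plates. The number of genes at 1 TPM or more had a median of 6842 in Lgr5-positive cells (3373 to 10026) and 7484.5 in Lgr5-negative cells (2333 to 11734). Ribosomal RNA rows took a median of 77.4% of TPM in Lgr5-positive cells and 76.3% in Lgr5-negative cells, and spike-in RNAs took 1.14% in Lgr5-positive cells and 0.658% in Lgr5-negative cells. Spike-in shares were higher in the Lgr5-positive cells of 4 of the 5 plates, and their part in the differences below was not tested. The number of reads per cell is not given in the sources used here, so the depth is unknown, and intervals on shares of cells are exact Clopper-Pearson intervals at 95% that cover counting error only.

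Lgr5 lies on chromosome 10 (115450311 to 115587780 of GRCm38, minus strand; ENSMUSG00000020140). In the 55 positive cells it ranged between 1.52 and 518.06 TPM with a median of 135.3 TPM. Among the negative cells 47 had a value between 0 and 1 TPM and the others were at 0. The 4 positive cells just inside the threshold had 1.52, 1.76, 1.77 and 2.0 TPM, and the 4 negative cells just outside it had 0.75, 0.74, 0.67 and 0.62 TPM. Most positive cells therefore lay far above the threshold: 48 had 10 TPM or more and 7 had less.

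The positive cells were spread over the plates. Plate P1-3 held 16 of 75 (21.3%), P1-4 15 of 78 (19.2%), P1-5 10 of 71 (14.1%), P1-6 9 of 74 (12.2%) and P2-1 5 of 81 (6.17%). The median Lgr5 level of the positive cells was 177.9 TPM in P1-3, 135.2 in P1-4, 142.6 in P1-5, 100.7 in P1-6 and 12.7 in P2-1. Plate P2-1 thus had the fewest positive cells and the lowest levels, and 3 of its 5 positive cells were under 15 TPM. The labels do not say how the plates differ.

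**Figure D1:**
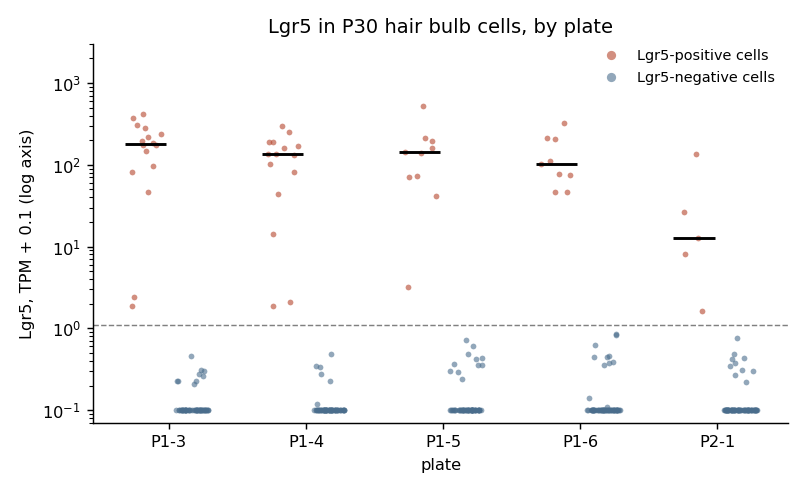
Lgr5 in each kept P30 hair bulb cell, as TPM + 0.1 on a log axis, by plate; Lgr5-positive cells stand to the left of Lgr5-negative cells, black bars are medians of the positive cells and the dashed line is the threshold of 1 TPM. Of the 55 positive cells 48 sit at 10 TPM or above, and plate P2-1 has the lowest median (12.7 TPM).

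As a group, the 7 positive cells under 10 TPM did not share the profile of the rest, although single cells on both sides departed from this. Krt15, a keratin of basal follicle cells, was seen (1 TPM or more) in 47 of the 48 cells with 10 TPM of Lgr5 or more and in 4 of the 7 others. Timp3, an inhibitor of matrix metalloproteinases, was seen in 47 of 48 and in 3 of 7, and Fgfr3, a growth factor receptor, in 43 of 48 and in 3 of 7. For genes lower in the positive cells as a whole the order was the other way round: Lef1, a transcription factor of the WNT pathway, was seen in 7 of 48 and in 6 of 7, and Sat1, a polyamine acetyltransferase, in 12 of 48 and in 7 of 7. Gpnmb, a transmembrane glycoprotein, was seen in 5 of 48 and in 4 of 7, and Kitl, the ligand of Kit, in 5 of 48 and in 5 of 7. This boundary of 10 TPM was one of the alternatives for the comparison.

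Among the named genes the largest difference between the sets was that of Krt15. It had a median of 202.1 TPM in Lgr5-positive cells (0 to 1513.6) and 0 in Lgr5-negative cells (0 to 1250.11), and was seen in 92.7% of Lgr5-positive cells (interval 82.41 to 97.98%) and 21.9% of Lgr5-negative cells (17.5 to 26.8%). Fgfr3, a receptor for fibroblast growth factors, had a median of 112.3 TPM in Lgr5-positive cells (0 to 614.03) and 0 in Lgr5-negative cells (0 to 275.66), and was seen in 83.6% of Lgr5-positive cells and 27.8% of Lgr5-negative cells. The ranges of both genes overlapped between the sets, although most Lgr5-negative cells were at 0 for each. Both genes were seen together in 45 of 55 Lgr5-positive cells (81.8%) and in 39 Lgr5-negative cells (12.04%). Requiring that Lef1 was not seen left 39 of 55 Lgr5-positive cells (70.9%) and 3 Lgr5-negative cells (0.926%). Krt15 lies on chromosome 11 (100131758 to 100135928) and Fgfr3 on chromosome 5 (33721674 to 33737068). Since Lgr5, Krt15 and Fgfr3 were named as markers with these data in view, their levels are a description. Lef1 was taken from the largest negative differences of this same comparison. The split by Krt15, Fgfr3 and Lef1 is therefore also a description and no measure of how specific these genes are.

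Across all genes the size of a difference was the mean of log2(TPM + 1) in Lgr5-positive cells minus that in Lgr5-negative cells. A gene is called higher or lower here when this difference reached 1 and had the same sign in all 5 plates. Of 12852 genes seen in at least 10% of the kept cells, 543 (4.23%) were higher in Lgr5-positive cells, Lgr5 among them, and 596 (4.64%) were lower; the median gene had a difference of -0.14. The counts of called list members below stand against these 2 shares, and counts of signs against 7999 negative and 4853 positive differences among the tested genes. The 2 shares are of genes past the filter, while list totals also hold genes below it. For the 6 lists compiled after the values had been seen, members were picked with these differences known. Their counts are a description only and are not weighed against the shares. The filter pooled both sets. A gene seen in under 10% of Lgr5-negative cells could pass it only by being more frequent in Lgr5-positive cells. Without the rule on plates 672 (5.23%) were higher and 853 (6.64%) lower. Without plate P2-1 the counts were 721 and 914, and with only positive cells of 10 TPM or more they were 765 and 1156, without P2-1 in the sign rule. Within quartiles of the number of genes per cell they were 610 and 496. Without cells that held 3 or more melanocyte markers they were 759 and 983. That setting left out 67.3% of Lgr5-negative cells and had 4 plates in the sign rule instead of 5.

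The 15 largest called positive differences, leaving out Lgr5, predicted gene models, pseudogenes and ribosomal protein genes, included genes of keratinocyte structure, extracellular matrix, receptors and transcription. Slc1a3, a glutamate transporter, gave 4.51 but did not have the same sign in all plates, so it is not among them. After Krt15 (5.94) came Timp3 (5.31; chromosome 10, 86300372 to 86349506), seen in 90.9% of Lgr5-positive cells and 30.9% of Lgr5-negative cells. Creb5, a CREB family transcription factor, differed by 4.81 (mean 66.4 TPM in Lgr5-positive cells and 1.19 TPM in Lgr5-negative cells) and Vdr, the vitamin D receptor, by 4.39 (248.2 TPM in Lgr5-positive cells and 13.4 TPM in Lgr5-negative cells). Among matrix proteins, Col16a1, a collagen associated with fibrils and basement membranes, differed by 4.67, Tnc, the adhesion-modulating glycoprotein tenascin C, by 4.51, Thbs1, thrombospondin 1, by 4.39, Bgn, the proteoglycan biglycan, by 4.18 and Fndc1, a fibronectin type III domain protein, by 4.16. Creb5 and Tnc had the lowest shares of the 15 genes in the other set, seen in 6.48% and 5.25% of Lgr5-negative cells. With Igfbp3 (9.26%) they passed the 10% filter through the Lgr5-positive cells.

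Igfbp3, a binding protein for insulin-like growth factors, differed by 4.60 and Fgfr3 by 4.43. Cyp2s1, a cytochrome P450, differed by 4.37, Oplah, an enzyme of the glutathione cycle, by 4.29 and Slc29a1, a nucleoside transporter, by 4.15. Il11ra1, the interleukin 11 receptor, differed by 4.67, but reads could be split among its near-identical copies, so its own level is uncertain. The copies Il11ra2 (41.7 TPM in Lgr5-positive cells and 0.820 in Lgr5-negative cells), Gm13305 (181.9 and 4.71 TPM in the same order) and Gm13306 (210.5 and 16.6 TPM) also had the higher mean in Lgr5-positive cells. In each of these 15 genes plate P2-1 gave the smallest of the 5 plate differences, between 1.11 for Igfbp3 and 2.89 for Krt15. With any Lgr5 above 0 as the threshold the 15 differences were smaller, between 2.13 for Fgfr3 and 3.14 for Krt15. As a log2 ratio of mean TPMs Bgn gave 1.97.

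**Figure D2:**
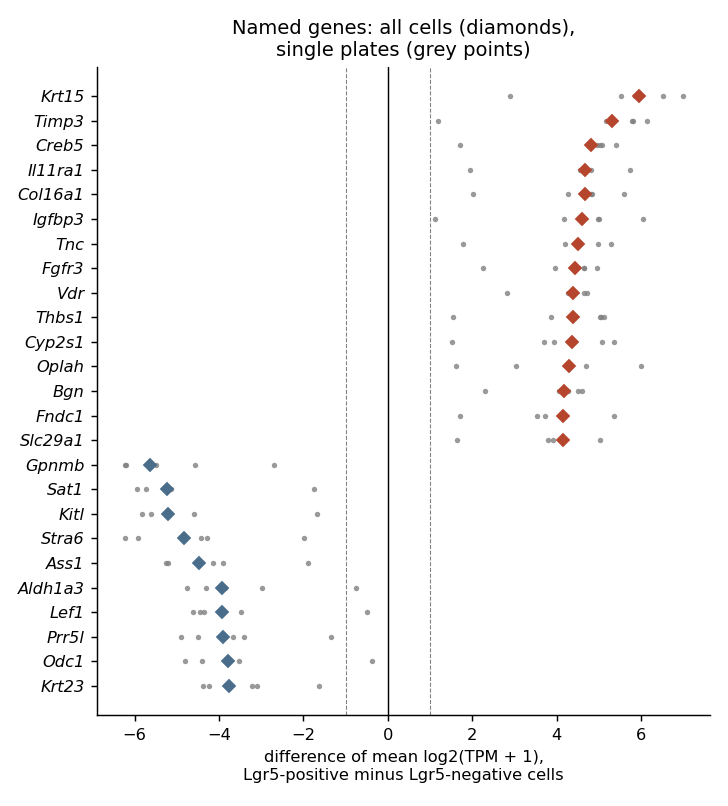
Difference of mean log2(TPM + 1), Lgr5-positive minus Lgr5-negative cells, for the named genes with the 15 largest positive and the 10 largest negative called differences; diamonds are all cells, grey points single plates, dashed lines the threshold of 1. The pooled values run between 5.94 for Krt15 and -5.64 for Gpnmb, and the grey point nearest to 0 is plate P2-1 in each of the 15 genes on the right.

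The 10 largest called negative differences included genes of pigment cell contact and of polyamine and retinoid metabolism. Gpnmb, a transmembrane glycoprotein known from pigment cells and macrophages, had a median of 0 in Lgr5-positive cells (0 to 1126.84 TPM) and 427.1 TPM in Lgr5-negative cells (0 to 2453.95), a difference of -5.64. Sat1 differed by -5.23. Kitl, the ligand of the receptor Kit on melanocytes, had a median of 0 in Lgr5-positive cells (0 to 512.7 TPM) and 161.2 TPM in Lgr5-negative cells (0 to 1161.45), a difference of -5.22. Single cells of both sets had high or no signal, so the ranges overlapped. Kitl was seen in 18.2% of Lgr5-positive cells and 89.8% of Lgr5-negative cells.

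Stra6, a membrane receptor for retinol uptake, differed by -4.83, Ass1, an enzyme of arginine synthesis, by -4.48 and Aldh1a3, which makes retinoic acid, by -3.93. Lef1 differed by -3.93, Prr5l, a binding partner of mTORC2, by -3.91, Odc1, the first enzyme of polyamine synthesis, by -3.79 and Krt23, a type I keratin, by -3.75. In these 10 genes, too, the pooled difference was larger than that of plate P2-1, which was -0.37 for Odc1 and -0.50 for Lef1. As a log2 ratio of mean TPMs the 10 differences were smaller, between -1.89 for Odc1 and -3.51 for Kitl, with Gpnmb at -3.11, Stra6 at -2.51 and Sat1 at -2.27. With any Lgr5 above 0 as the threshold they lay between -1.47 for Krt23 and -2.62 for Kitl. The melanocyte markers Mlana, Dct, Pmel, Tyrp1 and Kit were also lower in Lgr5-positive cells. A negative difference was found for 7999 of the 12852 tested genes and for all 10 listed melanocyte markers (median -0.95). At least 3 of them were seen in 10 of 55 Lgr5-positive cells (18.2%) and 67.3% of Lgr5-negative cells. Their summed level ran between 0 and 1150 TPM in Lgr5-positive cells (median 2.49) and between 0 and 18550 TPM in Lgr5-negative cells (median 53.4). With cells of 3 or more such markers left out, Gpnmb differed by -4.39, Kitl by -4.74, Stra6 by -4.34 and Lef1 by -3.96.

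**Figure D3:**
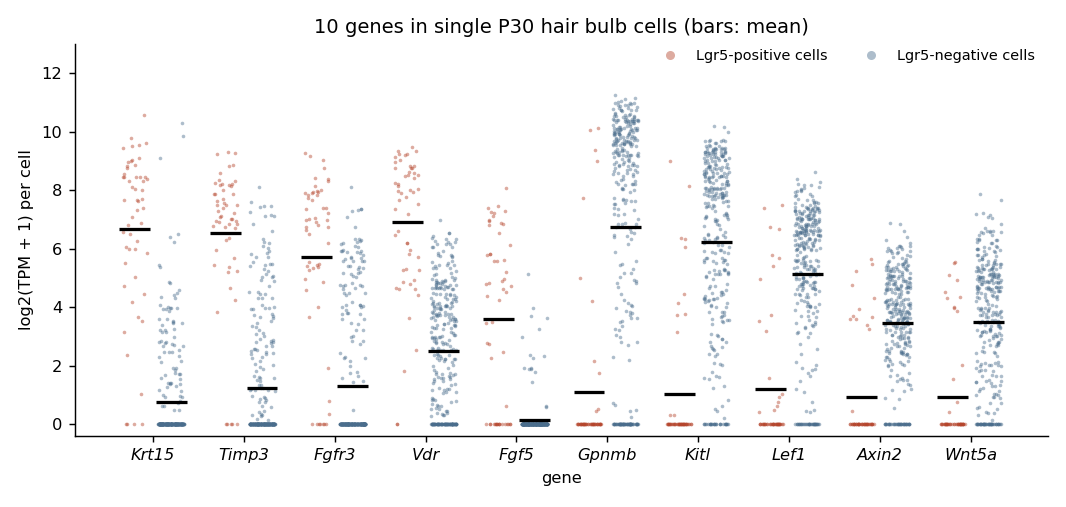
Level of 10 genes in single cells, as log2(TPM + 1), with Lgr5-positive cells left of Lgr5-negative cells and black bars at the mean. Krt15, Timp3, Fgfr3, Vdr and Fgf5 are high in most of the 55 positive cells, while Gpnmb, Kitl, Lef1, Axin2 and Wnt5a are at 0 in most of them.

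Outer root sheath genes were higher as a group. All 11 listed genes passed the filter on low values, 10 were higher in Lgr5-positive cells and none was lower. The median difference was 2.92 against -0.14 for all genes. Fgf5, Sox9 and Barx2 were each seen in under 10% of Lgr5-negative cells and passed the filter through the Lgr5-positive cells. The list holds Krt15 and Fgfr3, which were named as markers with these data in view. Besides these, Fgf5, a growth factor that ends hair growth, differed by 3.47 and was seen in 36 of 55 Lgr5-positive cells (65.5%, interval 51.4 to 77.8%) and 15 Lgr5-negative cells (4.63%, 2.61 to 7.52%). Lhx2, a LIM homeobox factor of follicle progenitors and the gene named in the strain's reporter, differed by 3.14. Krt5 and Krt14, the keratin pair of basal epithelial cells, differed by 3.11 and 2.92, and Cxcl14, a chemokine, by 2.18. Krt17 gave -0.09, with medians of 250.6 TPM in Lgr5-positive cells and 159.4 TPM in Lgr5-negative cells.

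The transcription factors of the list were patchy among the Lgr5-positive cells. Sox9, a factor of outer root sheath and stem cells, was seen in 27 of 55 Lgr5-positive cells (49.1%) and 26 Lgr5-negative cells (8.02%), and Barx2, a homeobox factor, in 29 Lgr5-positive cells (52.7%) and 11 Lgr5-negative cells (3.40%). Both were seen together in 22 Lgr5-positive cells and 8 Lgr5-negative cells. At least 7 of the 11 outer root sheath genes were seen in 43 of 55 Lgr5-positive cells (78.2%) and 46 Lgr5-negative cells (14.2%).

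Bulge stem cell genes were split between those higher in Lgr5-positive cells and those at or near 0. Of 17 listed genes 10 passed the filter, and of these 7 were higher and none was lower. The median difference was 1.69 over these 10 and 0.16 over all 17 with no filter on low values. Nfib, a nuclear factor I family member, was seen in all 55 Lgr5-positive cells and differed by 3.50. Postn, the matrix protein periostin, differed by 3.03, Cd34, a surface sialomucin used to sort bulge cells, by 2.34 and Tcf7l2, a TCF family factor, by 2.30. Cd34 had a median of 10.8 TPM in Lgr5-positive cells (0 to 190.12) and 0.66 TPM in Lgr5-negative cells (0 to 25.2). Cd34 and Postn were seen together in 30 of 55 Lgr5-positive cells and 10 Lgr5-negative cells. By contrast Krt24 was at 0 in every cell of both sets, and Foxc1, Fgf18, Grem1 and Dmkn were seen in at most 3.64% of Lgr5-positive cells. Id2 gave -1.65 but 0.13 in plate P2-1, so it was not called.

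Genes of the cell-to-matrix contact were higher in part. In the adhesion list 5 of 12 genes were higher and none was lower (median 0.94). Dst, which encodes the hemidesmosome linker BPAG1 among its isoforms, differed by 2.80, the laminin chain Lamb3 by 1.87, and Col17a1, a hemidesmosome collagen, by 1.44. The integrin genes of the sort, Itga6 and Itgb1, gave 0.55 and 0.95 and were not called, and Cdh3, the gene of P-cadherin, was higher by 1.64. Ly6a, the gene of Sca-1, was at a mean of 0.173 TPM in both sets and below the filter.

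A list of matrix genes compiled after the values had been seen gave 14 higher of 25 and none lower (median 1.76 among the 23 that passed the filter). Col4a1 and Col4a2, chains of the main basement membrane collagen, differed by 3.67 and 3.65, Lamb1, a laminin chain, by 3.27, Timp2, a second metalloproteinase inhibitor, by 3.43 and Col18a1 by 2.61. Col4a1 had a median of 39.2 TPM in Lgr5-positive cells (0 to 167.99) and 0 in Lgr5-negative cells (0 to 426.59). Nid1 and Nid2, the nidogens of basement membranes, gave -0.20 and -0.20 and were not called. Collagen genes of fibroblasts did not follow: Col1a1 gave 0.10, Col1a2 -0.33 and Col3a1 -0.55.

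Contractile genes formed a further group, in a list likewise compiled after the values had been seen: 12 of 22 were higher and none was lower (median 1.96 among 20 past the filter). Fblim1, an adaptor of cell-to-matrix junctions, differed by 4.10, Cald1, an actin-binding regulator of contraction, by 4.07, Smtn, an actin-associated protein, by 4.05 and Fhod3, a formin, by 3.97. Tpm1, a tropomyosin, differed by 3.26. These sizes depended on the measure: as a log2 ratio of mean TPMs the list median was 0.89, Cald1 gave 1.29 and Tpm1 1.73.

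Acta2, the smooth muscle actin gene (chromosome 19, 34241090 to 34255590), was seen in 39 of 55 Lgr5-positive cells (70.9%, interval 57.1 to 82.4%) and 57 Lgr5-negative cells (17.6%, 13.6 to 22.2%). Its difference was 3.32 and that of Myl9, a myosin light chain, 3.25, but the log2 ratio of mean TPMs gave -0.41 for Acta2 and -0.44 for Myl9. Mean Acta2 was 131.3 TPM in Lgr5-positive cells (at most 798.59) and 174.5 TPM in Lgr5-negative cells (at most 4701.49). All 39 Acta2-positive cells among the Lgr5-positive cells also had Krt15. Among the Acta2-positive cells alone, the 2 sets differed in the muscle and pericyte genes Myh11, Rgs5 and Des. At least 1 of the 3 was seen in 1 of the 39 Acta2-positive Lgr5-positive cells (2.56%) and in 42 of the 57 Acta2-positive Lgr5-negative cells (73.7%). In those 42 Lgr5-negative cells Acta2 had a median of 757.2 TPM (1.8 to 4701.49). In the 38 Lgr5-positive cells with Acta2 and none of the 3 its median was 136.3 TPM (3.55 to 798.59), and in the 15 Lgr5-negative cells of that kind it was 4.67 TPM (1.55 to 39.98). With cells of 3 or more fibroblast, immune or endothelial and muscle markers left out, an alternative chosen after seeing the data, Acta2 differed by 4.17.

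Among the WNT pathway genes that were called, 5 Frizzled, Lrp and Lgr receptors were higher in Lgr5-positive cells and 1 was lower, while the called ligands (3 of 16) and response genes (5 of 11) were all lower. WNT ligands bind Frizzled receptors with the co-receptors Lrp5 and Lrp6, R-spondins act through Lgr receptors to keep Frizzled at the surface, and TCF/LEF factors carry the signal to genes such as Axin2. Fzd1 had a median of 48.9 TPM in Lgr5-positive cells (0 to 227.03) and 3.03 TPM in Lgr5-negative cells (0 to 52.34), a difference of 2.93. Lrp6 differed by 1.83, Lgr4, a relative of Lgr5, by 1.79, Fzd4 by 1.75 and Fzd2 by 1.17. Fzd5 gave 2.0 but -0.29 in plate P2-1, so it was not called. Lgr4 and Lrp6 were seen together in 48 of 55 Lgr5-positive cells (87.3%) and 45.99% of Lgr5-negative cells. Fzd10 was called lower (-1.48). The other such receptors past the filter were not called: Lrp5 gave 0.86, Lgr6 0.83, Fzd6 0.81, Fzd7 0.59, Fzd8 0.11 and Fzd3 -0.75.

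Modulators went both ways. Sfrp1, a secreted WNT antagonist, differed by 1.94 and Dkk3, a Dickkopf family protein, by 1.27. The membrane inhibitor Apcdd1 differed by -2.21, Kremen1, a Dickkopf receptor, by -1.68 and Notum, an enzyme that removes the lipid of WNT ligands, by -1.32. In the list of receptors and modulators 7 of 24 genes were higher and 4 lower (21 passed the filter, median 0.81).

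No ligand on the list was higher, and 3 of 16 were lower (7 passed the filter, median -0.87, and -0.10 over all 16 with no filter): Wnt5a differed by -2.56, Wnt3 by -1.97 and Wnt4 by -1.96. Wnt5a was seen in 12 of 55 Lgr5-positive cells (21.8%) and 81.2% of Lgr5-negative cells. The R-spondin genes Rspo1, Rspo2, Rspo3 and Rspo4 were below the filter, and Rspo2 and Rspo3 were at 0 in every Lgr5-positive cell.

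Of 11 response genes with a row 10 passed the filter, 5 were lower and none was higher (median -1.13). Axin2, a negative regulator and common readout of the pathway, had a median of 0 in Lgr5-positive cells (0 to 49.31 TPM) and 12.8 TPM in Lgr5-negative cells (0 to 115.93), a difference of -2.54. Tnfrsf19, a TNF receptor family member, differed by -3.61, Lef1 by -3.93, Tcf7, another TCF/LEF factor, by -1.36 and Notum by -1.32. Ccnd1 and Myc gave 0.56 and 0.05. The TCF/LEF family itself was divided: Tcf7l1 and Tcf7l2 were higher (1.87 and 2.30) while Lef1 and Tcf7 were lower.

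**Figure D4:**
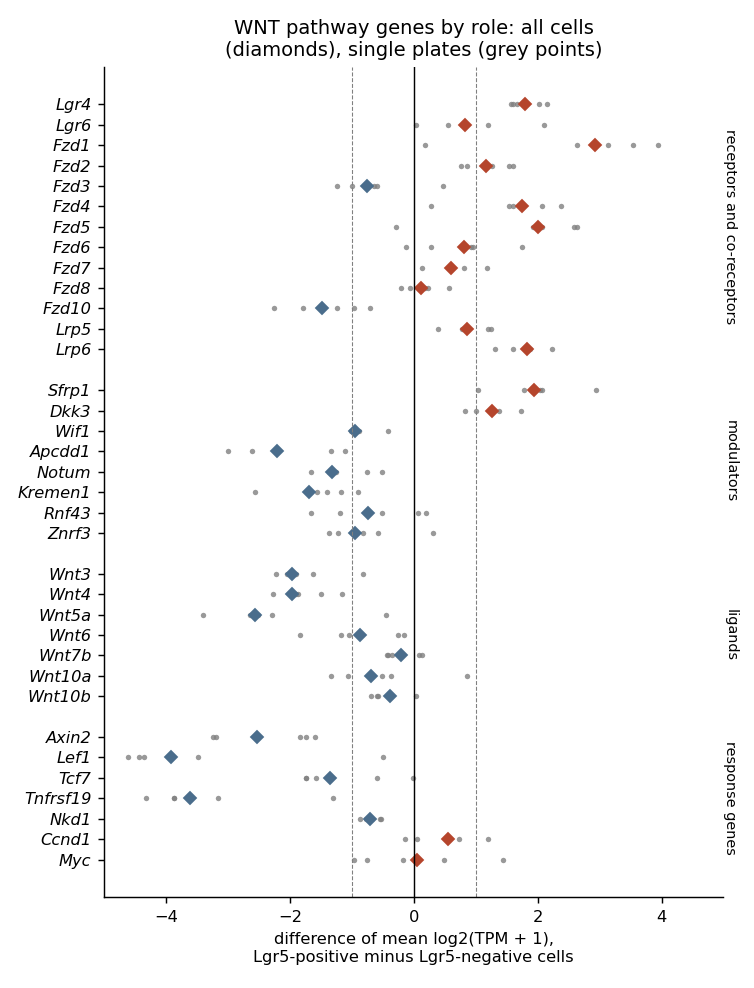
Difference of mean log2(TPM + 1), Lgr5-positive minus Lgr5-negative cells, for WNT pathway genes that passed the filter, in the order receptors, modulators, ligands and response genes; diamonds are all cells, grey points single plates and dashed lines the threshold of 1. Fzd1 (2.93), Lgr4 and Lrp6 lie to the right, and Wnt5a (-2.56), Axin2 (-2.54), Tnfrsf19 and Lef1 to the left.

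The promoter windows of Tcf7l1 and Lef1, TCF/LEF genes with opposite differences, are shown with the bases searched. Each runs between 250 bases before and 50 bases after the RefSeq transcript start (GRCm38.p6), Tcf7l1 at chr6:72788996-72789295 on the minus strand and Lef1, the first of 4 RefSeq starts, at chr3:131110047-131110346 on the plus strand. Capitals mark the TCF/LEF core letters CTTTGA or CTTTGT on either strand.
Tcf7l1: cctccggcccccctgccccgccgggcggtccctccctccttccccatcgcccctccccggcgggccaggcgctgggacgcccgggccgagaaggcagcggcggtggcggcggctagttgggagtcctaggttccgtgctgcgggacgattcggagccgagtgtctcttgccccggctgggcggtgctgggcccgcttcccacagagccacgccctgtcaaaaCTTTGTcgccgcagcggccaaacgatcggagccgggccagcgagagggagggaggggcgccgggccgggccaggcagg
Lef1: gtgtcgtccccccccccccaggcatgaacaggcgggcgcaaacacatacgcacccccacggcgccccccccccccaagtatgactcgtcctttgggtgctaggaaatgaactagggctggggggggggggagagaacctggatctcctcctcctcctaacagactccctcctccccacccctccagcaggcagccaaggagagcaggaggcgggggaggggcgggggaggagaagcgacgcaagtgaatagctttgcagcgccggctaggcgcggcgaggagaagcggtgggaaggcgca
The Tcf7l1 window holds CTTTGT once, at bases -28 to -23 from the start, and the Lef1 window holds neither. These letters occur in 31.2% of the 32851 RefSeq windows, in 1 of the 7 windows found for WNT response genes and in 2 of the 7 found for outer root sheath genes.

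Hedgehog genes, whose ligand Shh drives follicle growth, were higher in 4 of 12 cases and lower in 1 (10 passed the filter, median 0.54, and 0.14 over all 12 with no filter). Gas1, a co-receptor, differed by 2.16, Gli1, a transcription factor and target of the pathway, by 1.63, Gli2, the main activator, by 1.51 and Smo, the signal transducer, by 1.04. Gli3, which acts largely as a repressor, differed by -1.85. Gli1 had a median of 5.87 TPM in Lgr5-positive cells (0 to 48.76) and 0 in Lgr5-negative cells (0 to 32.34). Ptch1, receptor and target, gave 0.83 and was not called. Shh itself was seen in 1.82% of Lgr5-positive cells and 5.56% of Lgr5-negative cells.

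In the BMP and TGF-beta list 2 of 27 genes were higher and 4 lower (23 passed the filter, median -0.40), where 4.23% of all tested genes were higher and 4.64% lower; the number higher was near that share. The lower genes were Bambi, a decoy receptor (-2.42), Bmp2, a ligand (-2.13), Smad7, an inhibitor (-1.80) and Id1, a BMP target (-1.38). Id4, another member of the Id family, was higher by 2.38 and Tgfbr2, a TGF-beta receptor, by 1.04. Id4 was seen in 65.5% of Lgr5-positive cells and 8.95% of Lgr5-negative cells, and passed the filter through the Lgr5-positive cells.

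Among FGF genes 3 of 21 were higher and none was lower (14 passed the filter): Fgfr3, Fgf5 and Fgfr1 (2.45). The FGF feedback genes Dusp6, Etv5, Etv4 and Spry2 gave 0.49, 0.33, -0.76 and -0.50 and were not called. Notch1, a receptor, was higher by 2.71 and Lfng, a glycosyltransferase that modifies Notch, by 1.88, the called genes among 13 of that pathway (9 passed the filter). Notch1 was seen in 92.7% of Lgr5-positive cells and 42.6% of Lgr5-negative cells, and its target Hes1 gave -0.92 without a call. The medians of the FGF and Notch lists changed sign with the filter on low values and are not given a direction.

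Further receptors and guidance proteins are taken from lists compiled after the values had been seen. Of 20 cytokine and growth factor receptors 6 were higher and 1 was lower (16 passed the filter). Besides Il11ra1, Cntfr, the ciliary neurotrophic factor receptor, differed by 3.83, Ret, the receptor for the GDNF family, by 3.50 and Met, the HGF receptor, by 1.84. Ednra, an endothelin receptor, differed by -3.22. Of 24 guidance genes 6 were higher and 2 lower (16 passed the filter). Flrt2 and Flrt3, membrane proteins that bind Unc5 receptors and latrophilins, differed by 4.07 and 3.73, and Tenm2, a teneurin, by 3.73, while Unc5b differed by -3.38 and Nrp1 by -1.58. Slit3, a Robo ligand, gave 4.10 but a slightly negative value in 1 plate (-0.04), so it was not called. In the list of sebaceous gland and infundibulum genes (3 passed the filter) 1 of 6 was higher and 1 lower, Scd1, a fatty acid desaturase (-1.72). Lrig1, a negative regulator of EGF receptors that marks stem cells of the upper follicle, was higher by 3.29, in 81.8% of Lgr5-positive cells and 15.7% of Lgr5-negative cells.

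Genes of the differentiating lineages were lower in part. In the list of matrix transcription factors 7 of 12 were lower and none was higher (11 passed the filter, median -1.89): besides Lef1, Prdm1, a repressor also known as Blimp1, differed by -3.38, Msx1 and Msx2, homeobox factors, by -2.68 and -2.43, and Ovol1, a zinc finger factor, by -2.03. Hoxc13, which drives hair keratin genes, differed by -1.60. Prdm1 was seen in 18.2% of Lgr5-positive cells and 73.8% of Lgr5-negative cells.

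Of 10 inner root sheath genes 4 were lower and 1 was higher (8 passed the filter, median -1.70). Tchh, trichohyalin, differed by -2.78, and the inner root sheath keratins Krt25 and Krt28 by -1.94 and -1.85. Gata3, a factor of inner root sheath fate, went the other way, at 2.78: it was seen in 39 of 55 Lgr5-positive cells (70.9%) and 57 Lgr5-negative cells (17.6%). Gata3 and Fgf5 were seen in the same cell in 30 Lgr5-positive cells and 8 Lgr5-negative cells. In the earlier groups of the series Gata3 was seen in 86.1% (P21 bulge) to 100% (P25-P27 hair germ) of Lgr5-positive cells. Its median there lay between 22.1 and 57.3 TPM, against 15.7 TPM in the Lgr5-positive P30 cells.

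Hair shaft genes were at or near 0 in most Lgr5-positive cells. Of 13 cortex and cuticle genes 6 passed the filter and 3 were lower: Krtap8-1, a keratin-associated protein, differed by -2.33, Krt35 by -1.48 and Krt83 by -1.16. At least 3 of the 13 were seen in 3 of 55 Lgr5-positive cells (5.45%) and 43.2% of Lgr5-negative cells. In the list drawn up for the medulla 3 of the 5 genes with a row were lower. S100a3, also a hair cuticle gene, differed by -3.53, Foxq1 by -3.45 and the keratin Krt75, which the companion layer also makes, by -3.27. The companion layer keratins Krt6a, Krt6b and Krt16 were below the filter. Genes of differentiated epidermis included 1 lower of 7, Calml3 (-1.96), and none higher (5 passed the filter).

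Cholesterol synthesis, a list compiled after the values had been seen, was lower in 19 of 22 genes and higher in none (median -1.78). Fdps, farnesyl diphosphate synthase, differed by -3.43 and Hmgcs1, HMG-CoA synthase, by -3.16. Hmgcs1 had a median of 1.14 TPM in Lgr5-positive cells (0 to 57.4) and 43.9 TPM in Lgr5-negative cells (0 to 240.83). Insig1, a sterol sensor, differed by -2.06, while Dhcr7, an enzyme of the last steps, gave -0.02 and was not called. The promoter window of Hmgcs1 (chr13:119690101-119690400, plus strand) is shown because sterol regulatory elements are the sites through which SREBP factors act on these genes; capitals mark the core letters CACCCCAC.
Hmgcs1: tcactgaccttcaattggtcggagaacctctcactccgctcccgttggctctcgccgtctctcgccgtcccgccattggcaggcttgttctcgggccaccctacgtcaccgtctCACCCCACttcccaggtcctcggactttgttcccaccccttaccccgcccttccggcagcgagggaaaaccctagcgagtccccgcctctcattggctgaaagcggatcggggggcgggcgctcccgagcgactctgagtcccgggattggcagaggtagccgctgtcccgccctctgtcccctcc
The letters stand once, at bases -136 to -129. On either strand they occur in 2.87% of the 32851 windows, in 1 of the 16 found for the cholesterol list, and in 2 of the 7 found for outer root sheath genes.

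Of 17 retinoid genes, also compiled afterwards, 12 passed the filter. Of these 4 were lower and none higher, the lower ones including Stra6, Aldh1a3 and Aldh1a1 (-1.27). The receptors Rara, Rarg and Rxra gave 0.23, -0.48 and 0.34 and were not called.

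Cell cycle genes were seen in part of the cells of both sets, with no called difference when all kept cells were used. None of 20 mitosis genes and none of 18 replication genes was called. Mki67, a proliferation marker, was seen in 26 of 55 Lgr5-positive cells (47.3%, interval 33.7 to 61.2%) and 55.6% of Lgr5-negative cells (49.96 to 61.05%). At least 10 of the 20 mitosis genes were seen in 18 Lgr5-positive cells (32.7%, 20.7 to 46.7%) and 37.04% of Lgr5-negative cells (31.8 to 42.6%). The intervals overlapped for both. Of the 12852 tested genes 7999 had a negative difference. All 20 mitosis genes had one (median -0.51), and their median by plate lay between -1.38 and 0.20. This median was -0.16 within quartiles of the number of genes per cell and -1.06 without cells of 3 or more melanocyte markers. With those cells left out Ccnb1, a mitotic cyclin, gave -1.68, Ube2c, a ubiquitin-conjugating enzyme of mitosis, -1.66 and Cdc20, an activator of the anaphase-promoting complex, -1.41, against -0.93, -0.85 and -0.56 in all kept cells. In the list of quiescence genes 2 of 10 were higher and 2 lower (9 passed the filter). Cdkn1a, the inhibitor p21, differed by -3.74 and Ccng2, an atypical cyclin, by -1.11, while Gas6, a ligand of TAM receptors, differed by 1.74 and Foxo1, a forkhead factor, by 1.63.

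Immune markers, and several endothelial and muscle markers in 1 cell, were rare in Lgr5-positive cells, and fibroblast markers were about as frequent in both sets. At least 3 of 12 dermal papilla and fibroblast markers were seen in 7 of 55 Lgr5-positive cells (12.7%) and 39 Lgr5-negative cells (12.04%). Their summed level ran up to 897.2 TPM in Lgr5-positive cells and 3006 TPM in Lgr5-negative cells. At least 3 of 8 immune markers were seen in 1 cell of each set (1.82% of Lgr5-positive and 0.309% of Lgr5-negative cells). The summed level of the immune markers ran up to 2269 TPM in Lgr5-positive cells and 153.6 TPM in Lgr5-negative cells. At least 3 of 8 endothelial and muscle markers were seen in 0 of 55 Lgr5-positive cells, an upper interval bound of 6.49%, and in 25 Lgr5-negative cells (7.72%). The list holds Acta2, and a median of 1 of the 8 markers was seen in Lgr5-positive cells (summed level 40.02 TPM) and of 0 in Lgr5-negative cells (0 TPM). Lum, Pdgfra, Rspo2 and Rspo3 were at 0 in all Lgr5-positive cells. Tek, the angiopoietin receptor known from endothelium, was seen in 16 of 55 Lgr5-positive cells (29.1%) and 1 Lgr5-negative cell (0.309%), below the filter, with Cdh5 and Kdr in at most 2 positive cells. Immediate early genes included 1 lower of 12, Junb (-1.48), a number near the 4.64% of all tested genes. Egr1 gave 1.58 with a value of -0.05 in 1 plate, so it was not called. Of the 12 genes 4 had a positive and 8 a negative difference, where 7999 of all 12852 tested genes were negative.

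Across the series Lgr5 was found in a smaller share of P30 hair bulb cells than of the other epithelial groups. Cells of P21 to P27 came from Lgr5-eGFPiresCreER;R26-tdTomato mice with GFP and tdTomato among the sort markers, and strain, plate, sort and age cannot be told apart from group. Under the same rule Lgr5 was found in 92.3% of P21 bulge cells (36 of 39), 92.6% of P21 hair germ cells (63 of 68), 94.1% of P23-P24 hair germ cells (64 of 68), 93.8% of P25-P27 hair germ cells (15 of 16), 49.5% of P25-P27 matrix cells (97 cells) and 14.5% of P30 hair bulb cells. The median level of those cells was 166.6, 134.7, 48.6, 61.6, 53.5 and 135.3 TPM in that order. The median of the P30 cells lay within the range of the other groups.

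Several genes set the P30 cells beside or apart from the earlier Lgr5-positive cells. Krt15 was seen in at least 92.7% of Lgr5-positive cells in each group, but its median level was 3935 TPM in P21 bulge, 1820 in P21 hair germ, 1381 in P23-P24 hair germ, 3041 in P25-P27 hair germ, 944.6 in P25-P27 matrix and 202.1 in P30 hair bulb cells. Fgfr3 was of similar breadth throughout, in 80% to 97.2% of cells. Median Cd34 was 322.4 TPM in P21 bulge and 10.8 TPM in P30 cells, and between 0.79 and 10.7 TPM in the other groups. Median Postn was 294.2 TPM in P21 bulge, 189.7 in P25-P27 hair germ and 15.7 in P30 cells, and at most 12.7 in the other groups. Krt24 and Dmkn, bulge genes, were seen in 91.7% and all of the Lgr5-positive P21 bulge cells; in the P30 cells Krt24 was not seen and Dmkn was seen in 3.64%. A count of 0 of 55 has an upper bound of 6.49%.

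Fgf5 showed the reverse. It was seen in 65.5% of Lgr5-positive P30 cells and in no Lgr5-positive cell of the earlier groups, with upper bounds between 3.73 and 21.8%. Timp3 was seen in 11.1% of Lgr5-positive cells in P21 bulge, 34.9% in P21 hair germ, 54.7% in P23-P24 hair germ, 6.67% in P25-P27 hair germ, 63.9% in P25-P27 matrix and 90.9% in P30 hair bulb. Lef1 and Axin2 were seen in 63.9% and 72.2% of Lgr5-positive P25-P27 matrix cells and in 23.6% and 21.8% of the P30 cells, while Lef1 was seen in 30.6% of Lgr5-positive P21 bulge cells. Sox9 was seen in 62.9% of Lgr5-positive P25-P27 matrix cells and 49.1% of the P30 cells, with overlapping intervals.

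**Figure D5:**
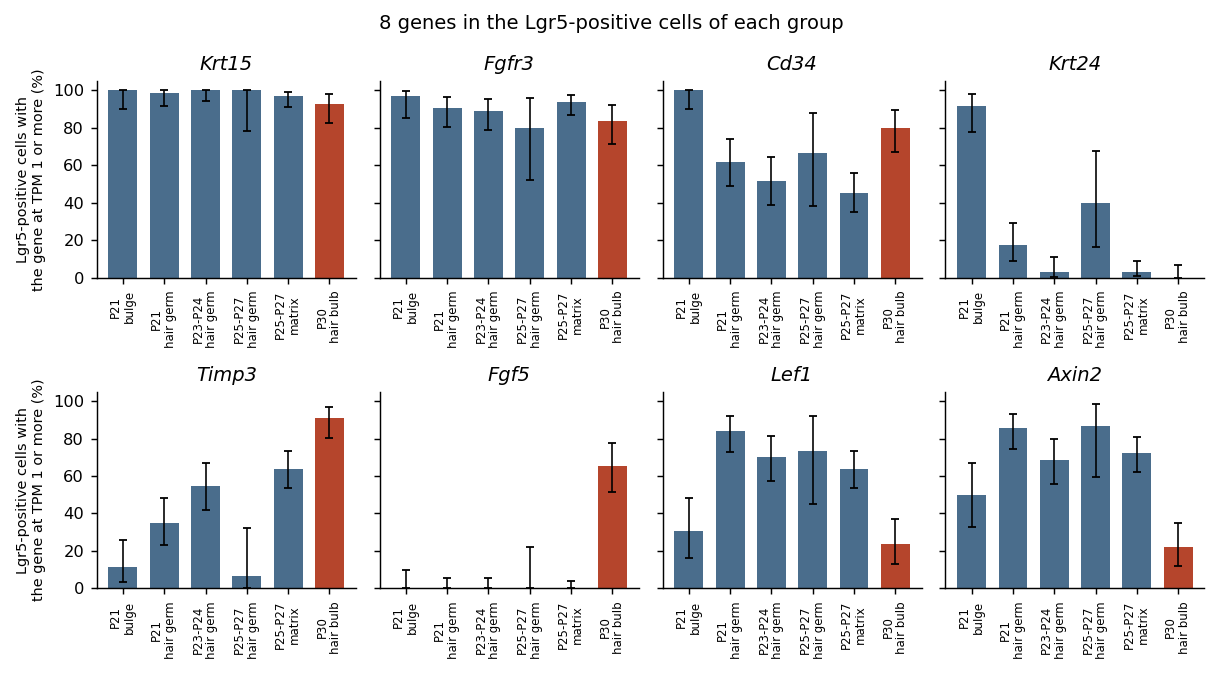
Share of Lgr5-positive cells with each of 8 genes at 1 TPM or more, by group of the series in order of age, with exact 95% intervals; the P30 hair bulb cells are the red bars. Fgf5 appears in the P30 cells alone (65.5%), Krt24 is highest in P21 bulge cells (91.7%), and Lef1 and Axin2 are lower in P30 cells (23.6% and 21.8%) than in P25-P27 matrix cells.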

How the data were processed

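Single cells of mouse back skin were sorted into plates and profiled with Smart-seq2, per the labels' protocols. The authors deposited TPM values for each gene and cell; RSEM 1.2.30, Bowtie2 2.2.9 and the mm10 build are named in the submitters' processing notes. TPM columns sum to the same total, so a gene's value also depends on the ribosomal RNA and spike-in rows, which were left out of the comparison with the mitochondrial rows. No column was left unmapped.

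Cells with 2000 or more genes at TPM 1 or more were kept (5 were not), and Lgr5 TPM of 1 or more set the positive cells. Differences are of mean log2(TPM + 1). Genes entered when seen in 10% of kept cells. With 1 sample a group no test was made. Named genes are the 15 largest positive and 10 largest negative calls, leaving out Lgr5, predicted models, pseudogenes and ribosomal protein genes, and up to 4 members of each list with the largest difference, plus members whose role orders the account; Tek and other members outside that rule were singled out after their values were seen. A few list members are not reported here. The members and the gene lists (26, and 6 added later) were chosen with earlier results of these data known. Wells were sorted singly and no doublet caller was run. Symbols were taken from the table, biotypes and positions from GENCODE M21 (GRCm38) and promoter sequences from RefSeq. The alternatives were other pseudocounts, scalings, thresholds, filters, strata and left-out plates or cells. Python 3.11.15, numpy 2.4.6, pandas 2.3.3 and scipy 1.17.1 were used; the code was tested on simulated data.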

Additional observations from a re-analysis of the deposited data

How the results depend on the processing

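The shares of tested genes higher and lower in Lgr5-positive cells, 4.23% and 4.64%, were 6.49% and 11.2% with a pseudocount of 0.1, 1.35% and 0.755% with a pseudocount of 10, 1.96% and 0.7% with Lgr5 above 0 as the threshold, and 1.21% and 1.29% with no filter on low values. The share of lower genes was 8.44% with TPM rescaled without ribosomal RNA, spike-in and mitochondrial rows. With 4 plates in the sign rule instead of 5, it was 9.04% with Lgr5 at 10 TPM or more. It was 7.67% without cells of 3 or more melanocyte markers, likewise with 4 plates in the sign rule. With 1 plate left out in turn the shares ran between 4.05% and 5.62% higher and between 4.62% and 7.13% lower, with both upper ends when plate P2-1 was left out. The median difference of all genes, -0.14, was -0.34 with a pseudocount of 0.1, -0.023 as a log2 ratio of mean TPMs and 0.00 with no filter on low values. As a log2 ratio of mean TPMs Acta2 gave -0.41 and Myl9 -0.44; no other called gene of the lists or among the named genes changed sign in the alternatives run. The causes were not tested. A difference of log2(TPM + 1) understates changes of genes with low values, the labels name no animal, and reads per cell are unknown. As the mean of within-plate differences, each plate weighted by its number of Lgr5-positive cells, the shares were 4.27% and 4.37%. No paired analysis was possible by replicate number, because these numbers only name the cells of a group and pair none of them.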
